A study of Mus musculus with 24 samples.

Results

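Bone morphogenetic protein (BMP) ligands, their receptors, a BMP-responsive Smad and the Id target genes were followed in mouse lung after induction of a TGF-β1 transgene. The set was a list of 10 genes taken by symbol, chosen with earlier results of these data known. It held the ligands Bmp2, Bmp4 and Bmp6, the receptors Bmpr1a, Bmpr2 and Acvrl1, the co-receptor Eng, the transcription factor Smad9, and the targets Id1 and Id3. All 10 were measured, out of 13499 genes in all, and each was represented by 1 probe set. RNA from the right lung lobe had been hybridised to 24 whole-transcript microarrays. There were 17 transgenic (TG) and 7 wild-type (WT) samples from 6 inbred strains, and every mouse, WT included, had received doxycycline in its water for 2 weeks to switch the transgene on. C57BL6/J gave 2 TG and 2 WT samples, and the other strains gave 3 TG samples and 1 WT sample each: AKR/J, A/J, C3H (3C3H/J in the series design), Balb/cJ and 129 (129Si/J in the design). The series design names A/J, AKR/J and C57BL6/J as prone to fibrosis (8 TG, 4 WT) and 129, Balb/cJ and C3H as resistant (9 TG, 3 WT). The samples' own fibrosis code, taken at its key, swaps the sets. The design was followed, and with the code instead each prone minus resistant sign given here turns. For the transgene's promoter and target cell type, and for the mice's age and sex, the sources used here give nothing. The samples are numbered within a group and are called mice here. Nothing else in the labels says that they came from separate animals, so the p-values measure the spread between these samples.

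BMPs are secreted ligands of the TGF-β superfamily. They assemble type II receptors such as Bmpr2 with type I receptors such as Bmpr1a or Acvrl1 (also called ALK1), which phosphorylate the receptor-regulated Smads Smad1, Smad5 and Smad9 (also called Smad8). These move to the nucleus with Smad4 and switch on genes such as Id1 and Id3, whose products block basic helix-loop-helix transcription factors. Acvrl1 and its co-receptor Eng (endoglin) act mainly in endothelial cells, and inherited loss of either causes hereditary haemorrhagic telangiectasia in people. Inherited loss of Bmpr2 is the main known genetic cause of pulmonary arterial hypertension.

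Of the members whose levels fell with the transgene, 4 had an entry in the RefSeq promoter table (GRCm38.p6). They are shown because they moved together in the measurements that follow, as the 250 bases before the annotated start of each gene. Capitals mark the motifs searched, on both strands: GGCGCC, a BMP-type Smad site, CAGAC, a TGF-β-type Smad element, and GGAAG, the core of ETS-family sites, which reads CTTCC on the other strand.
Bmp6, chr13:38345466-38345715, plus strand: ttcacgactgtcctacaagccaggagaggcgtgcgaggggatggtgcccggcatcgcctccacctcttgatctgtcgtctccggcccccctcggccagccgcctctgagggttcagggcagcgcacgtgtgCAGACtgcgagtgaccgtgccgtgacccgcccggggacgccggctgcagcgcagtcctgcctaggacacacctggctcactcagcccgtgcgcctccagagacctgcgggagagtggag
Eng, chr2:32646345-32646594, plus strand: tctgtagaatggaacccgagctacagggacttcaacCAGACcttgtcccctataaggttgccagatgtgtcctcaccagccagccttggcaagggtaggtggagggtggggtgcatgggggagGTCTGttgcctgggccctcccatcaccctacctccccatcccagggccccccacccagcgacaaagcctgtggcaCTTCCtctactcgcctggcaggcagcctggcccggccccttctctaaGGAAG
Bmpr2, chr1:59764029-59764278, plus strand: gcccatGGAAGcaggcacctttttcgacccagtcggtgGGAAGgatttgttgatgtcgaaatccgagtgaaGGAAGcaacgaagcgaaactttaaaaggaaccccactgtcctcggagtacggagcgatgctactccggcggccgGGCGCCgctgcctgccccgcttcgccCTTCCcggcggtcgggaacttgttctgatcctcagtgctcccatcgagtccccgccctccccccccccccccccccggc
Smad9, chr3:54755332-54755581, plus strand: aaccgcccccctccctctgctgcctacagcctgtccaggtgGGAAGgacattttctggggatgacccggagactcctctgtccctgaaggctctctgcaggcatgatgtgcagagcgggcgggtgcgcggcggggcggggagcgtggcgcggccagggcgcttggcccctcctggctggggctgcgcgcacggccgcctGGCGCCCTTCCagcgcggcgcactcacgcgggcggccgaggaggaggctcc
The Bmp6 window held 1 CAGAC and no GGAAG or GGCGCC. The Eng window held 2 CAGAC and 2 GGAAG, one of them ending at the last base before the start. Both Bmpr2 and Smad9 held 1 GGCGCC, with 4 GGAAG in Bmpr2 and 2 in Smad9, where a CTTCC directly follows the GGCGCC without overlapping it. Over 27025 mouse promoter windows of this length, GGCGCC was present in 9.5%, CAGAC in 42.1% and GGAAG in 63.6%. No motif was common to all of these windows, and the matches describe letters only. The table matched 7 of the 10 members, and Bmp2, Acvrl1 and Id1 were not among them. Of the other matched members, Id3 held 2 CAGAC and 2 GGAAG, Bmp4 held 3 GGAAG, and Bmpr1a held 1 GGCGCC and 2 GGAAG.

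All values are log2 intensities, and differences are on the log2 scale. The 24 arrays were closely alike, with medians of 7.759 to 7.835 and correlations of 0.9916 to 0.9972 between the 17 pairs of mice sharing a group. Their number limits the precision, and the median residual SD over genes was 0.102. The lung origin of the RNA was visible in the surfactant genes Sftpc (14.21 to 14.46) and Sftpa1 (13.74 to 14.19), markers of alveolar type 2 cells. The table covered little of chromosomes 6 to 9 and X, so Tgfb1 itself was not analysed here and the induction of the transgene was not checked.

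Over all strains, with strain held fixed, 6 of the 10 members differed between TG and WT mice at an adjusted p below 0.05 (limma, Benjamini-Hochberg over 13499 genes). Across all genes 26.7% were called in this comparison, 13.2% higher and 13.5% lower. Bmp6, Eng, Acvrl1, Bmpr2 and Smad9 fell, and Bmpr1a rose. The median difference of the 10 members was -0.21, against 0.00 over all genes. As the list was chosen with earlier results known, these shares and medians describe it and do not test it. Bmp2, Bmp4, Id1 and Id3 did not pass the test. These values come from whole lobes, in which fewer cells of a type and less RNA per cell cannot be told apart.

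**Figure D1:**
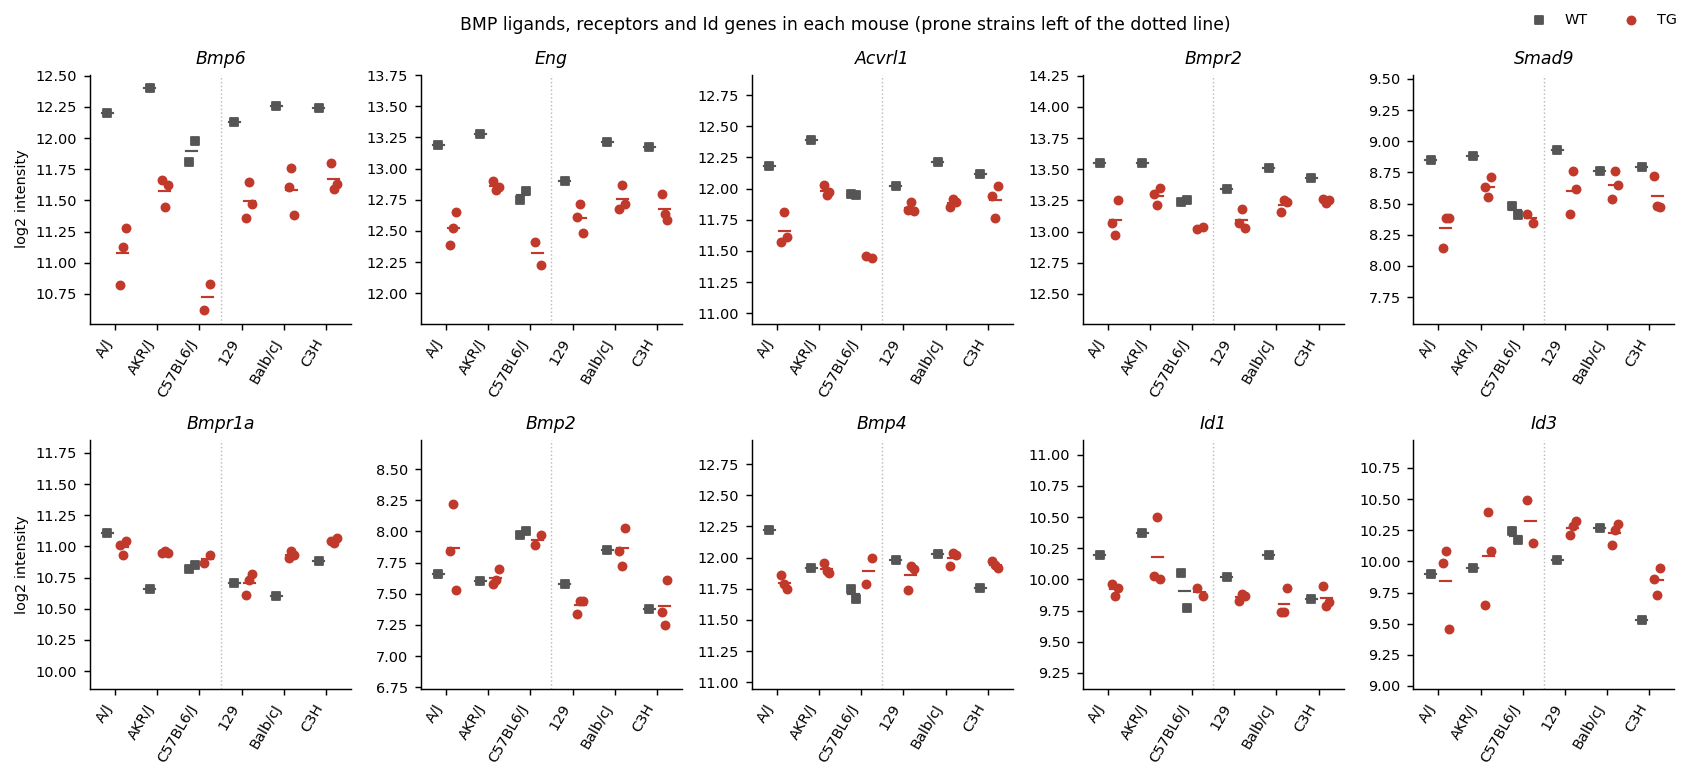
Each panel plots the log2 intensity of 1 gene (vertical axis) in every mouse by strain (horizontal axis), with WT mice as grey squares, TG mice as red circles and short lines at the group means. Each panel has its own axis of the same length in log2 units, and all TG circles lie below the WT squares of their strain for Bmp6, Eng, Acvrl1 and Bmpr2.

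Among the ligands, Bmp6 carried the largest change of any member. Bmp6 is a BMP made by the endothelium of the liver, where it is known as the signal that sets hepcidin and so iron balance. In the prone strains, A/J TG mice read 10.82, 11.13 and 11.28 against 12.20 in the A/J WT mouse, and AKR/J TG mice read 11.66, 11.45 and 11.62 against 12.40. The C57BL6/J TG mice read 10.62 and 10.83 against 11.81 and 11.98 in their WT mice. In the resistant strains, Bmp6 read 11.36, 11.65 and 11.47 against 12.13 in 129. Balb/cJ TG mice read 11.61, 11.76 and 11.38 against 12.26, and C3H TG mice read 11.80, 11.59 and 11.63 against 12.24. Every one of the 17 TG mice lay below all 7 WT mice, though only just: the highest TG value was 11.80 in C3H and the lowest WT value 11.81 in C57BL6/J. A separation of this kind, with TG lower, was seen in 0.615% of all genes. The difference was -0.85 ± 0.08 (SE; 95% interval -1.01 to -0.68, 17 TG and 7 WT), a level 1.8-fold lower in TG mice (adjusted p = 9.3e-08).

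Bmp4 and Bmp2 did not pass the test over all strains. Bmp4 is a ligand with a central part in lung bud outgrowth during development. It ranged from 11.74 to 12.04 in TG mice (median 11.92) and from 11.67 to 12.22 in WT mice (median 11.92), and the groups overlapped. Its TG minus WT difference was -0.03 ± 0.06 (95% interval -0.14 to 0.09, adjusted p = 0.78). The sign of its difference varied by strain. In A/J, Bmp4 was 11.86, 11.79 and 11.75 in TG mice against 12.22 in the WT mouse, a difference of -0.42 ± 0.09 (adjusted p = 0.0058 within A/J). In C57BL6/J it was 11.79 and 12 in TG mice against 11.75 and 11.67, and in C3H it was 11.97, 11.94 and 11.92 against 11.76. There every TG mouse lay above its WT mice. The difference of means was 0.18 in each of these strains, and neither passed the test. In a test of whether the TG effect varied among strains, Bmp4 had F = 6.02 and an adjusted p of 0.087.

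Bmp2, a ligand close in sequence to Bmp4, ranged from 7.25 to 8.22 in TG mice (median 7.61) and from 7.38 to 8.0 in WT mice (median 7.66). These values lie near the medians of the arrays and the groups overlapped. The difference was 0.00 ± 0.07 (95% interval -0.14 to 0.14, adjusted p = 0.99). Bmp2 varied more with the strain. TG mice averaged 7.40 ± 0.19 (SD, n = 3) in C3H and 7.41 ± 0.06 in 129, then 7.63 ± 0.06 in AKR/J, 7.86 ± 0.16 in Balb/cJ, 7.86 ± 0.34 in A/J and 7.93 ± 0.06 (n = 2) in C57BL6/J. Mice of neighbouring strains in this order overlapped, except between 129 and AKR/J and between AKR/J and Balb/cJ.

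Of the receptors, Eng and Acvrl1 fell most. Eng presents BMP9 and BMP10 to Acvrl1 on the endothelial surface. In A/J, Eng read 12.39, 12.52 and 12.65 in TG mice against 13.19, and in AKR/J 12.90, 12.83 and 12.85 against 13.28. In C57BL6/J it read 12.41 and 12.23 in TG mice against 12.75 and 12.82. The resistant strains moved the same way. Eng read 12.61, 12.72 and 12.48 against 12.90 in 129, and 12.68, 12.87 and 12.72 against 13.21 in Balb/cJ. In C3H it read 12.80, 12.64 and 12.59 against 13.17. In each strain all TG mice lay below their WT mice, and 12 of 17 TG mice lay below every WT mouse of any strain. The difference was -0.46 ± 0.05 (95% interval -0.56 to -0.37), or 1.38-fold lower (adjusted p = 3.1e-07).

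Acvrl1, the type I receptor for BMP9 and BMP10, followed Eng closely. TG mice read 11.57, 11.81 and 11.61 in A/J against 12.18 in the WT mouse, and 12.03, 11.95 and 11.97 in AKR/J against 12.39. In C57BL6/J they read 11.46 and 11.44 against 11.96 and 11.95. In 129 the TG values were 11.83, 11.89 and 11.82 against 12.02, and in Balb/cJ 11.85, 11.92 and 11.89 against 12.21. The TG mouse nearest to its WT mouse was in C3H, with 11.94, 11.76 and 12.02 against 12.12. Again all TG mice lay below the WT mice of their strain, in each of 6 strains. The difference was -0.37 ± 0.05 (95% interval -0.46 to -0.27), or 1.29-fold lower (adjusted p = 3.7e-06).

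Bmpr2, the type II receptor shared by many BMPs, fell by a smaller amount. Its TG values ranged from 12.97 to 13.35 (median 13.21) and its WT values from 13.24 to 13.55 (median 13.43). The lowest WT values, 13.24 and 13.25, belonged to C57BL6/J, whose TG mice read 13.02 and 13.04. Over all strains the groups overlapped, with 10 of 17 TG mice below every WT mouse, while within each strain they did not. The difference was -0.27 ± 0.04 (95% interval -0.35 to -0.19), or 1.21-fold lower (adjusted p = 1.6e-05). Bmp6, Eng, Acvrl1 and Bmpr2 thus each had all TG mice below the WT mice of their strain in 6 of 6 strains, a pattern found in 3.68% of all genes.

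Bmpr1a, a type I receptor for Bmp2 and Bmp4 that is also called ALK3, was the only member called higher. TG mice ranged from 10.61 to 11.07 (median 10.95) and WT mice from 10.60 to 11.11 (median 10.82), and the groups overlapped. In Balb/cJ the TG mice read 10.91, 10.96 and 10.93 against 10.60, and in AKR/J 10.95, 10.96 and 10.95 against 10.66. In A/J the order was turned, with 11.01, 10.93 and 11.04 against 11.11. The difference was 0.12 ± 0.04 (95% interval 0.03 to 0.21, adjusted p = 0.049), and it was lost in 19 of 24 fits that left out 1 mouse each. Among those removals the adjusted p ran from 0.00711 to 0.216.

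Smad9 carries the signal of activated BMP type I receptors to the nucleus. It ranged from 8.14 to 8.76 in TG mice (median 8.54) and from 8.41 to 8.93 in WT mice (median 8.79). The groups overlapped. All TG mice lay below the WT mouse in 5 strains, among them A/J (8.14, 8.38 and 8.38 against 8.85) and 129 (8.42, 8.76 and 8.62 against 8.93). In Balb/cJ the margin was slight, as the highest TG value and the WT value both rounded to 8.76. In C57BL6/J TG and WT mice overlapped, at 8.42 and 8.34 against 8.48 and 8.41. The difference was -0.25 ± 0.06 (95% interval -0.37 to -0.13), or 1.19-fold lower (adjusted p = 0.003). Bmp6, Eng, Acvrl1, Bmpr2 and Smad9 had a lower group mean in TG mice in every strain, as did 10.3% of all genes.

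Neither Id target passed the test. Id1, a direct target of BMP-activated Smads, ranged from 9.74 to 10.50 in TG mice (median 9.88) and from 9.77 to 10.37 in WT mice (median 10.05). The highest value of all was that of a TG mouse, the second of AKR/J, whose 2 TG companions read 10.03 and 10. The difference was -0.16 ± 0.06 (95% interval -0.29 to -0.04) and missed the threshold at an adjusted p of 0.051. Without that AKR/J mouse it was -0.19 with an adjusted p of 0.00954, and over 40 alternatives the adjusted p ran from 0.00954 to 0.204. Id3 ranged from 9.46 to 10.49 in TG mice (median 10.13) and from 9.53 to 10.27 in WT mice (median 10.01), and the groups overlapped. Within 129 (10.21, 10.28 and 10.32 against 10.01) and C3H (9.86, 9.73 and 9.95 against 9.53) all TG mice lay above their WT mouse, and within the other strains they overlapped. Its difference was 0.11 ± 0.09 (95% interval -0.06 to 0.29, adjusted p = 0.37), with 5 TG mice above every WT mouse and 1 below. Reading Id1 and Id3 side by side, the point estimates had opposite signs, and neither was called.

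**Figure D2:**
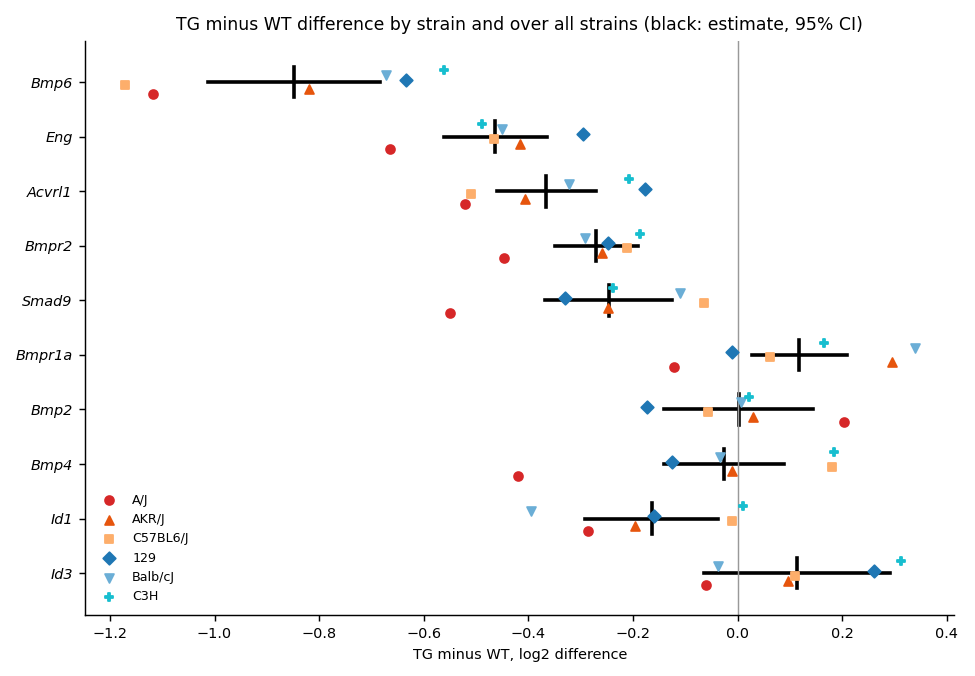
Each marker is the TG minus WT difference (log2, horizontal axis) of a member in 1 strain, and black bars give the estimate over all strains with its 95% interval. Bmp6, Eng, Acvrl1, Bmpr2 and Smad9 lie below 0 in all 6 strains, while Bmp4 lies at -0.42 in A/J and 0.18 in C57BL6/J and C3H.

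Fitted within single strains, where 5 of 6 rest on a lone WT mouse assumed to vary like the other groups, 13 of 60 member-by-strain differences were called. A/J had 6: Acvrl1 (-0.52), Bmp4 (-0.42), Bmp6 (-1.12), Bmpr2 (-0.45), Eng (-0.66) and Smad9 (-0.55), where 14.9% of all genes were called. C57BL6/J had 3, namely Bmp6 (-1.17 ± 0.15, adjusted p = 5.8e-05), Acvrl1 (-0.51) and Eng (-0.47), against 14.3% of all genes. AKR/J had Bmp6 (-0.82) and Acvrl1 (-0.41), against 2.11%, and Balb/cJ had Bmp6 (-0.67) and Bmpr1a (0.34 ± 0.08, adjusted p = 0.026), against 2.26%. In 129 and C3H limma called 0 members, where 2.95% and 0.822% of all genes were called. In each of them 4 members had an unadjusted p below 0.05, a value that many genes reached. The weakest of these members ranked 1556 of 13499 genes by p in 129 (Smad9) and 1258 in C3H (Acvrl1). Bmp6 was thus called in 4 of the 6 strains, more than any other member.

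The comparison of prone and resistant strains asks whether the response to the transgene goes with the labelled susceptibility. Within prone strains 5 members were called, all of them lower: Bmp6 (-1.04), Eng (-0.52), Acvrl1 (-0.48), Bmpr2 (-0.31) and Smad9 (-0.29), where 23.5% of all genes were called and 11.5% were called lower. Without the A/J WT mouse, which leaves AKR/J and C57BL6/J, Smad9 was at -0.16 with an adjusted p of 0.297, and Bmpr1a was called instead (0.18, adjusted p = 0.025). Within resistant strains 5 were called, against 10.7% of all genes (5.78% lower and 4.92% higher). Bmp6 (-0.62 ± 0.10), Eng (-0.41 ± 0.07), Bmpr2 (-0.24) and Acvrl1 (-0.24) were lower there and Bmpr1a (0.16) was higher. Without the Balb/cJ WT mouse, 2 of these 5 calls were left, Bmp6 and Eng. Bmpr2 was also lost without the 129 WT mouse (-0.24, adjusted p = 0.0525) and Bmpr1a without the C3H WT mouse (0.16, adjusted p = 0.0701). Smad9 in resistant strains was at -0.23 with an adjusted p of 0.072.

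The difference between the sets was itself tested. limma called 0 members, where 0.474% of all genes were called. Bmp6 and Acvrl1 had an unadjusted p below 0.05 and ranked 480 and 474 of 13499 genes by p. For Bmp6 the effect in prone minus that in resistant strains was -0.41 ± 0.13 (95% interval -0.70 to -0.13, adjusted p = 0.20). For Acvrl1 it was -0.24 ± 0.08 (95% interval -0.41 to -0.08, adjusted p = 0.19). A test of any variation of the TG effect among the 6 strains also called 0 members, against 1.34% of all genes. Bmp4 and Bmpr1a (F = 5.60, adjusted p = 0.10) were below an unadjusted 0.05 and ranked 360 and 428 of 13499 genes by p. With array weights 1 member, Bmpr1a, was called in that test, and with a trended, robust prior 1 member, Bmp4.

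Among TG mice alone, 3 members differed between prone and resistant strains, where 11.1% of all genes were called. Prone minus resistant, Bmp6 was at -0.46 ± 0.07 (adjusted p = 0.00049) and Acvrl1 at -0.18 ± 0.04 (adjusted p = 0.0090), both lower in prone TG mice. Bmp2 was higher there, at 0.25 ± 0.08 (adjusted p = 0.048), a call lost in 16 of 24 fits that left out 1 mouse each and in 21 of 33 alternatives in all (adjusted p from 0.00488 to 0.999). The mice of the sets overlapped for each gene, and a full separation was seen in 0.126% of all genes. With array weights 5 members were called, with Eng and Smad9 added. With strain means as the unit 0 were called, so Bmp6 and Acvrl1 lost their calls as well. In WT mice 0 members were called, against 0.741% of all genes. Bmpr1a alone had an unadjusted p below 0.05 (0.14 higher in prone strains, adjusted p = 0.31 by limma) and ranked 674 of 13499 genes by p. Without the AKR/J WT mouse Bmpr1a was called.

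The TG levels were then put in order by strain. For Bmp6, TG mice averaged 10.72 ± 0.15 (SD, n = 2) in C57BL6/J and 11.08 ± 0.23 (n = 3) in A/J. They averaged 11.49 ± 0.14 in 129, 11.58 ± 0.11 in AKR/J, 11.58 ± 0.19 in Balb/cJ and 11.67 ± 0.11 in C3H. The only neighbours in this order whose mice did not overlap were A/J and 129. The TG level of AKR/J, labelled prone, thus lay among those of the resistant strains. Its WT mouse had the highest Bmp6 of all WT mice, 12.40, and its TG minus WT difference was -0.82. That difference was -0.63 in 129, -0.67 in Balb/cJ and -0.56 in C3H, each resting on 1 WT mouse. Acvrl1 was lowest in C57BL6/J (11.45) and A/J (11.66) and highest in AKR/J (11.98). Among neighbours by mean, its mice separated between C57BL6/J and A/J and between A/J and 129. The lowest C3H mouse, at 11.76, still lay within the A/J range of 11.57 to 11.81. Smad9 was lowest in A/J (8.30) and C57BL6/J (8.38), whose mice all lay below those of C3H (8.56). They were not apart from 129, where the lowest mouse read 8.42, as did the highest of C57BL6/J. Eng ran from 12.32 in C57BL6/J to 12.86 in AKR/J and Bmpr2 from 13.03 to 13.29 in the same strains, with neighbours overlapping throughout. Bmpr1a stood apart in 129 (10.70), below C57BL6/J (10.90). Id1 was higher in AKR/J (10.18 ± 0.28) than in A/J (9.92 ± 0.04) without overlap, while neighbouring strains overlapped for Id3 and Bmp4.

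Tested together, 7 members differed among the TG groups of the 6 strains, where 31.4% of all genes were called. Bmp6 (adjusted p = 0.00023), Acvrl1 (0.00057) and Bmpr1a (0.0020) had the smallest adjusted p. The variation of each member was then shared out between its sources. Genotype, after strain, took 68.5% of the total variation of Bmp6, 62.0% of Eng, 58.3% of Bmpr2 and 54.4% of Acvrl1, against a median of 6.5% over all genes. Strain was the largest share for Bmp2 (69.9%, with 0.0% for genotype), Id3 (56.2%), Bmpr1a (54.8%), Id1 (47.5%) and Smad9 (45.5%, with 31.6% for genotype), against a median of 36.0%. For Bmp4 the largest share, 56.6%, lay in the combination of genotype and strain, against a median of 14.8%. Mice of one group differed most for Id3, at 37.2% of its variation, against a median of 30.4%. Each share was taken after the other terms, so the shares of a gene need not add to the whole.

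Eng and Acvrl1 are the receptor pair of endothelial cells, and most endothelial markers were also lower in TG mice. Of 18 listed markers 13 were measured, and 10 of these were called lower in TG mice and 0 higher, with a median of -0.26. Over all genes 13.5% were called lower and 13.2% higher. The mean level of the 13 was 11.19 to 11.75 in TG mice and 11.63 to 11.82 in WT mice. None was at or near the bottom of the scale in any mouse. The markers ran from Ednrb, an endothelin receptor of lung capillary cells (-0.85 ± 0.14), Tek, the angiopoietin receptor (-0.60 ± 0.06), Ramp2 and Gja5 (both -0.49) to Pecam1 (-0.22), Emcn (-0.03, not called) and Sox17 (0.18, not called). Of the 13 markers, 0 had a lower difference than Bmp6, 4 a lower one than Eng and also than Acvrl1, 5 than Bmpr2 and 8 than Smad9. Ednrb and Bmp6 both rounded to -0.85. The TG minus WT difference of the list's mean level was -0.55 in A/J, -0.18 in AKR/J and -0.39 in C57BL6/J, and it was -0.28 in 129, -0.10 in C3H and -0.27 in Balb/cJ. A/J and C57BL6/J were also the strains of lowest Bmp6, Acvrl1 and Eng level among TG mice. By TG minus WT difference, Bmp6 (-1.12 and -1.17) and Acvrl1 (-0.52 and -0.51) fell most in these strains too. Eng did not keep this order, at -0.66 in A/J, -0.49 in C3H, where the list fell least, and -0.47 in C57BL6/J. In AKR/J, where the list was at -0.18, Bmp6 was at -0.82 and Acvrl1 at -0.41. The part of these markers in the members' differences was not tested.

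**Figure D3:**
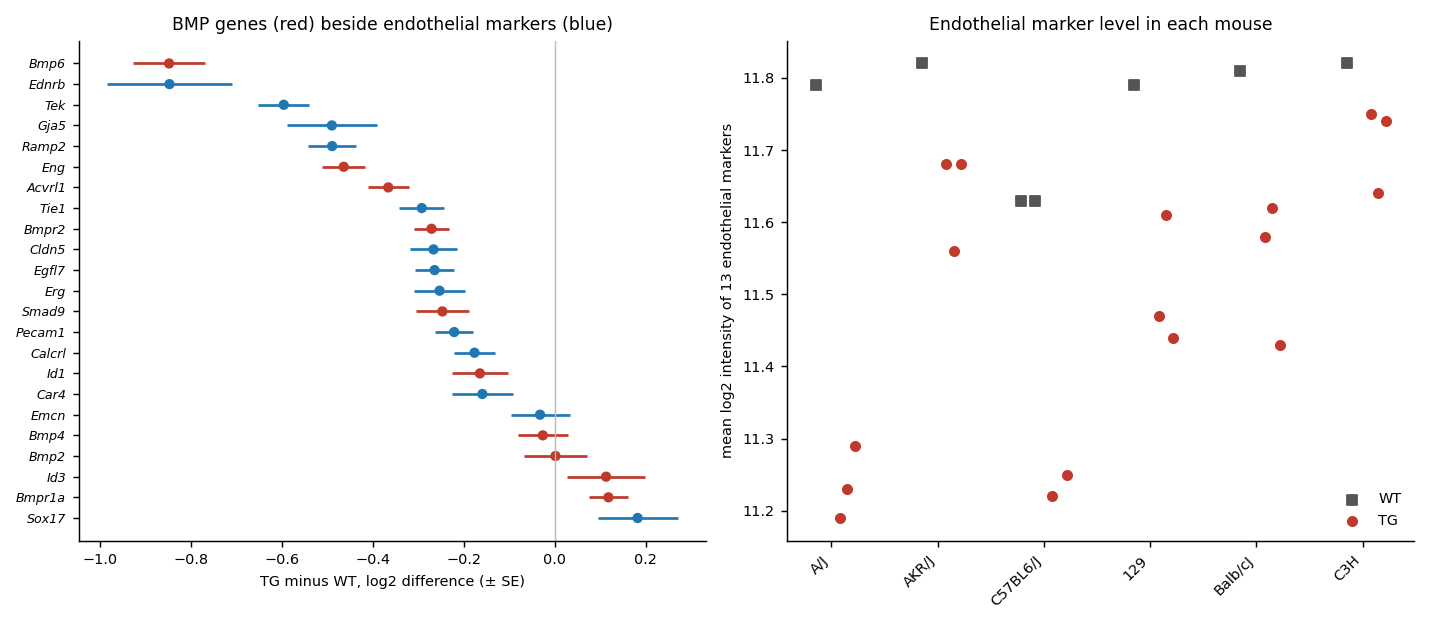
The left panel plots the TG minus WT difference (log2, bars ± SE) of the members in red and of the 13 endothelial markers in blue. The right panel plots the mean log2 intensity of those markers in each mouse by strain, where A/J and C57BL6/J TG mice, at 11.19 to 11.29, lie lowest.

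Genes of other cell type lists were called too, against 13.2% of all genes higher and 13.5% lower. Of 7 measured fibroblast markers 4 were higher and 2 lower (median 0.45), and of 7 macrophage markers 4 were higher and 0 lower (median 0.32). Of 6 smooth muscle and pericyte markers 1 was higher and 4 were lower (median -0.19), and of 5 club and ciliated markers 4 were lower (median -0.33). Of 4 platelet markers 3 were lower (median -0.51), as were all 4 heart muscle markers (median -0.89) and both T and NK markers (median -0.60). Of 3 lymphatic markers 1 was higher and 1 lower. Of 5 alveolar type 1 and 5 alveolar type 2 markers limma called 0. The part of these lists in the members' differences was not tested either.

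The rest of the pathway was taken from lists of 58 other genes, of which 37 were measured. Of these, 10 were called higher and 11 lower in TG mice, against 13.2% and 13.5% of all genes. The counts for each list are of called genes as well. Among 9 measured ligands 3 were higher and 1 lower, with a median of 0.03. Gdf10, also called BMP3B, ranged from 8.86 to 9.48 in TG mice and from 8.41 to 8.77 in WT mice with no overlap, and rose by 0.62 ± 0.07 (adjusted p = 1.7e-06). Gdf6 rose by 0.43 ± 0.09 and Gdf5 by 0.16 ± 0.05, both ligands of joint and cartilage formation, while Bmp7 fell by 0.38 ± 0.07. The highest values of Gdf6 and Gdf5, 7.71 and 7.12, lay below the median of every array, so both read dim. The related ligands Bmp8a (0.10 ± 0.04) and Bmp8b (0.03 ± 0.05) were not called.

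Of 5 other receptors and co-receptors 3 were lower and 1 higher, with a median of -0.18. Hjv, the BMP co-receptor of iron regulation, was at -0.41 ± 0.09, the type II receptor Acvr2a at -0.23 ± 0.05 and the co-receptor Rgmb at -0.18 ± 0.03. The mean level of Hjv, 7.65, lay below the median of every array. Acvr1, the type I receptor also called ALK2, rose by 0.25 ± 0.05 (9.30 to 9.85 in TG mice, 9.20 to 9.37 in WT mice, overlapping). The type I receptor Bmpr1b was at -0.13 ± 0.08 and was not called (adjusted p = 0.26).

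Among 4 other Smads and their regulators, the ubiquitin ligase Smurf2 (-0.28 ± 0.04), the inhibitory Smad7 (-0.20 ± 0.07) and the common partner Smad4 (-0.11 ± 0.03) were lower. Smad5, a BMP-activated Smad like Smad9, was higher at 0.12 ± 0.04. The list's median was -0.15.

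Extracellular modulators were mixed, with 3 of 11 higher, 2 lower and a median of 0.06. Fstl1, a secreted follistatin-like protein that binds BMPs, ranged from 10.92 to 12.27 in TG mice and from 10.40 to 10.89 in WT mice without overlap. It rose by 0.89 ± 0.11 (adjusted p = 3.2e-06), the largest rise among these 37 genes. Fstl3 (0.45 ± 0.06) and the antagonist Nbl1 (0.37 ± 0.06) were higher, and Crim1, a membrane protein that binds BMPs, was lower (-0.36 ± 0.05). The other lower gene, the pseudoreceptor Bambi (-0.32 ± 0.06), was named after its value was seen.

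Of 8 other targets 2 were higher and 2 lower, with a median of -0.10. Tmem100, an endothelial gene induced through Acvrl1, ranged from 11.46 to 12.55 in TG mice and from 12.16 to 12.80 in WT mice. It fell by 0.46 ± 0.07, with -0.66 in prone and -0.23 in resistant strains. Hey1, a target of both Notch and BMP signals in vessels, also fell by 0.46 ± 0.06, with -0.45 and -0.47 in those sets. The cartilage regulator Sox9 rose by 0.63 ± 0.13, and Hhex was at -0.17 ± 0.09 (adjusted p = 0.20). Id2, named after its value was seen, rose by 0.17 ± 0.04. It was the only one of the 4 measured Id genes to be called, with Id4 at -0.08 ± 0.05 (adjusted p = 0.21) and Id1 and Id3 uncalled as given before.

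**Figure D4:**
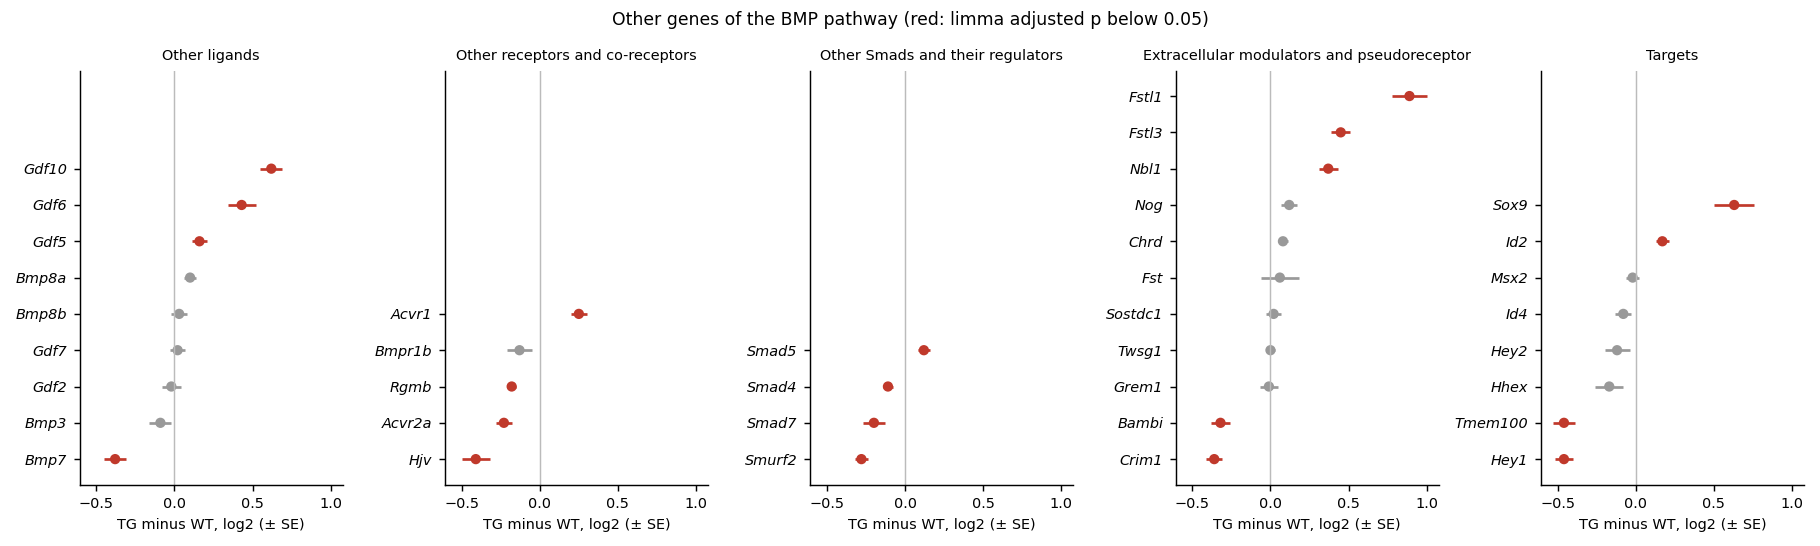
The TG minus WT difference (log2, bars ± SE) is plotted for each of the 37 other pathway genes, grouped by role. Fstl1 at 0.89 lies farthest above 0 and Tmem100 and Hey1, both at -0.46, farthest below.

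For each called member the genes of most similar profile were found from the 12 group means, each profile centred on its own mean, by the root mean square difference (log2). In 5 strains the WT mean is that of 1 mouse, and the likeness is a description. Bmp6 was nearest to Selenbp1 (0.117) and Clec14a (0.118), the latter a lectin of endothelial cells, and Eng to Vav3 (0.068) and then to Acvrl1 itself (0.086). Acvrl1 was nearest to Rgs12 (0.059) and to Epas1 (0.068), the hypoxia-inducible factor of endothelium. Bmpr2 was nearest to Rapgef2 (0.04) and Smurf2 (0.052). Smad9 was nearest to Fbxl7 (0.083) and Rmdn1 (0.086), and Bmpr1a to Septin2 (0.07) and Psmd5 (0.079). Eng and Acvrl1 were the closest members to each other, while the member nearest to Bmp6, again Eng, was at 0.236 and ranked 62 among all genes.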

How the data were processed

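Per the labels' protocols, fresh lung was homogenised in a phenol reagent, RNA was column-purified, and the Ambion WT Expression Kit served for labelling. The authors deposited 1 table of normalised probe set values, read as log2 intensities from their range of 3.41 to 14.75. Log base, summarisation, normalisation and software: not given in the sources used here. The table was held in part: of 25285 probe sets, 25284 were complete, and chromosomes 6 to 9 and X were covered to at most 2.0%. Probe sets with 1 symbol in the platform annotation (14539, of which 14480 matched RefSeq GRCm38.p6 by Entrez identifier) gave 13499 genes, using the brightest probe set where a gene had several. Sequence differences between strains can change probe binding.

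No further scaling was done. limma 3.58.1 (lmFit, eBayes, R 4.3.3, two-sided) compared TG with WT mice with strain as a fixed effect (17 residual degrees of freedom), and all else as contrasts of 12 group means (12 residual degrees of freedom). Adjusted p-values are Benjamini and Hochberg's over all genes, with a threshold of 0.05. The TG minus WT comparison over all strains was tested on simulated data, and the other comparisons were not. Alternatives were other scalings, filters, weights and priors, strain as a random block, a replicate block, and leaving out each mouse or strain. The members were named in full. Of each pathway list up to 4 genes of largest absolute difference were named, and of each called member the 2 genes of nearest profile. The members and lists were chosen with earlier results of these data known. Tables and plots used Python 3.11.15, pandas 2.3.3 and matplotlib 3.10.9.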

Additional observations from a re-analysis of the deposited data

Results flagged for a closer look

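Of 30 combinations of a member and a set of 7 to 9 mice (WT, prone TG or resistant TG), 2 held a mouse far from the others. Chance alone flags about 1 in 20 groups drawn from 1 normal distribution. These sets pool strains, so that rate need not hold here. Bmp4 in the first 129 TG mouse was 11.74, the lowest of 9 resistant TG mice, with the next at 11.91 (gap over range 0.557, critical value 0.493). Id1 in the second AKR/J TG mouse was 10.50, the highest of 8 prone TG mice, with the next at 10.03 (gap over range 0.741, critical value 0.526).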

How the results depend on the processing

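Bmp6, Eng, Acvrl1, Bmpr2 and Smad9 were called lower in TG than WT mice under all 40 alternatives, with ranges of -0.91 to -0.76, -0.50 to -0.43, -0.40 to -0.33, -0.29 to -0.24 and -0.30 to -0.19. Bmpr1a lost its call in 27 of 40 and Id1 gained one in 12 of 40. With 1 mouse left out, the members called numbered 5 to 7 in TG minus WT, 5 to 6 in prone and 2 to 6 in resistant strains (2 without the Balb/cJ WT mouse), 0 to 0 for the difference between the sets and 0 to 0 for variation of the TG effect among strains. Likewise they numbered 2 to 3 in TG mice by set, 0 to 1 in WT mice (1, Bmpr1a, without the AKR/J WT mouse) and 5 to 8 among TG strains, and 10 to 18 for calls within single strains. Leaving out a lone WT mouse gave no value for its own strain. Variation of the TG effect among strains went from 0 to 1 call with array weights and to 1 with a trended, robust prior, and TG mice by set went from 3 to 5 with array weights and to 0 with strain means as the unit. The cause was not tested. Deviations of same-numbered TG and WT mice could be compared in C57BL6/J alone (correlation 0.0583). Among 30 same-numbered pairs of TG mice from different strains the correlation ran from -0.15 to 0.13 (median -0.04), with 5 above 0.1. Among 60 pairs of other numbers it ran from -0.18 to 0.23 (median 0.0), also with 5 above 0.1. The numbers were not taken to pair the samples. With the replicate block 5 members were called in TG minus WT (Bmpr1a lost, adjusted p = 0.197), 4 in resistant strains (Bmpr1a lost), 2 in TG mice by set (Bmp2 lost), 5 among TG strains and 10 within single strains. The lone WT mouse in 5 strains limits each strain's own difference.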
